A study of Mus musculus with 1 sample.

Results

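The genes described here are the SCAN domain zinc finger genes Zscan2, Zscan12, Zscan21, Zscan26, Zkscan1, Zkscan3, Zkscan8 and Zkscan17. These 8 genes were chosen by symbol from the 27998 genes listed for the library, and each symbol occurred once. No measured value was used as a rule of choice, though earlier results of these data were known. The study asked how the transcription factor ZSCAN2 acts in mouse spermatogonia, and the question addressed here is where Zscan2 and its relatives were transcribed in the wild-type pup testis. The only group was wild type, on the C57BL/6 strain, at postnatal day 8, and a knockout library was not analysed here. Testis cells of 3 mice were selected for THY1, a surface antigen by which undifferentiated spermatogonia can be enriched, mixed with some unselected cells, combined in equal numbers and made into 1 Chromium v2 library. With 1 library of pooled mice there are no replicates, so no test was made and no p-value is given. All intervals are exact 95% intervals and cover counting error only.

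The SCAN domain is a short, leucine-rich stretch through which zinc finger proteins pair with one another, and it is found in vertebrates. The zinc fingers that follow it contact DNA. Genes named Zkscan encode a KRAB domain as well, the domain through which many zinc finger proteins recruit the corepressor TRIM28 and with it the histone methyltransferase SETDB1 and HP1 proteins, whereas Zscan genes are named for the SCAN domain and the fingers alone.

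The library held 970 barcodes and 11358045 UMIs (unique molecular identifiers, each standing for 1 captured transcript), and 920 cells were kept. Rebuilt clusters gave 324 germ cells, of which 133 were differentiating-like, 112 were like spermatogonial stem cells (SSC-like) and 79 were progenitor-like. The 596 somatic cells comprised a Sertoli-like class of 255 cells, a stromal-like class of 186, a peritubular myoid-like class of 94, a macrophage-like class of 35 and a T cell-like class of 26. The study counted more wild-type spermatogonia than the 324 germ cells, and its limits on cells were not given in the sources used here. The 6 germ cell markers summed to between 1237 and 1515 CPM (UMIs per 1000000 UMIs of the class) in the germ cell classes and to between 21.6 and 72.7 CPM in the somatic classes. The progenitor-like class held the red blood cell markers at 7116 CPM, of which 10150 of 10291 UMIs lay in 1 barcode, and at 98.3 CPM without it. The T cell-like class held peritubular myoid markers at 4017 CPM beside its own at 1394 CPM, and its leading genes were those of T and NK cells, such as Cd3g, Xcl1 and Nkg7, together with Rgs5, Higd1b and Cox4i2, known from pericytes. None of the 8 genes was among the variable genes used for clustering, so their levels played no direct part in forming the classes.

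The 8 genes lie at 4 places in the genome (GRCm38, GENCODE annotation). Zscan2 spans chr7:80860920-80876537 on the plus strand, and no annotated gene overlaps it on either strand. Zkscan1 at chr5:138085084-138107822 and Zscan21 at chr5:138116903-138134265 follow each other on the plus strand with 9.1 kb between them. Zscan12 at chr13:21362820-21372289 (plus strand), Zkscan3 at chr13:21387003-21402755, Zscan26 at chr13:21442180-21453730 and Zkscan8 at chr13:21513222-21531120 (all minus strand) share a stretch of 168.3 kb. Zkscan17 stands alone at chr11:59485520-59526751 on the minus strand. In the longest annotated coding transcript of each gene the coding sequence ran from 1398 bases in Zscan26 to 1842 bases in Zscan2, and the zinc finger pattern of paired cysteines and histidines matched 14 times in the translated Zscan2 sequence, against 4 to 9 times in the others. No 50-base stretch within the last 500 bases of these 8 transcripts occurred in a transcript of another gene, which bears on the counts because the library reads the 3′ ends of transcripts. The ends of the other annotated transcripts were not examined separately. Over all annotated transcripts of a gene, the share of such stretches found in other genes was largest in Zkscan3, at 4.33%, and was 2.37% in Zscan2. Zkscan1 shares exon sequence with Gm43493 on its own strand.

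Promoter windows of 7 of the 8 genes, all but Zkscan3, were matched in RefSeq (GRCm38.p6, 250 bases before to 50 bases after the start). They are shown because 5 of the 7 share a short element close to the start that Zscan2 lacks. The element, CCTAGAG on either strand, was picked after the sequences had been seen, and it is a description of letters, not of a binding site. It began 62 bases before the start in Zscan12, 50 in Zscan26, 48 in Zkscan1, 29 in Zscan21 and 14 in Zkscan8. Of all 27025 genes with a window, 5.66% held it, and 5 of 24 other genes of the SCAN family did. The ETS core CTTCCGG was found in the windows of Zscan12, Zscan21, Zkscan1 and Zkscan8, against 9.93% of all genes and 6 of 24 other genes of the SCAN family. In Zscan21 it lay after the start and in Zkscan8 across the start, so the stretches printed for Zscan21 and Zkscan8 do not hold it. The sequences run from 20 bases before the element to the last base before the start, with CCTAGAG and CTTCCGG (or its reverse complement CCGGAAG) in capitals. They are Zkscan1 at chr5:138085016-138085083 and Zscan21 at chr5:138116856-138116904 on the plus strand, Zscan12 at chr13:21362738-21362819 on the plus strand, and Zscan26 at chr13:21453728-21453797 and Zkscan8 at chr13:21531115-21531148 on the minus strand, each printed 5′ to 3′.
Zkscan1: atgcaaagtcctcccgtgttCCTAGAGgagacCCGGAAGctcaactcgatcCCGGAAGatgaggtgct
Zscan21: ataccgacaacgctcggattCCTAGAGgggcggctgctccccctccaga
Zscan12: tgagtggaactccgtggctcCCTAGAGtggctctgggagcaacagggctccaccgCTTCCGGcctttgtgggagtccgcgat
Zscan26: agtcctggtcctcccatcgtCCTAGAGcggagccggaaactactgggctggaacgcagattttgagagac
Zkscan8: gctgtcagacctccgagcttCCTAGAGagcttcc

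Zscan2 is shown beside them because it is the gene the study deleted. Its stretch of 150 bases, chr7:80860781-80860930 on the plus strand, ends at the base before the RefSeq start and has CCAAT and GGGCGG in capitals. CCAAT on either strand was present in the windows of 41.1% of all genes and GGGCGG in those of 38.2%.
Zscan2: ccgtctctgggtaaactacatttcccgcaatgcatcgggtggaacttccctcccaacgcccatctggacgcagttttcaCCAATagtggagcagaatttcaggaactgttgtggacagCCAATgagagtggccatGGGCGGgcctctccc

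Between germ and somatic cells the 8 genes went different ways. Zscan12 and Zscan21 had higher CPM in germ cells, Zscan2 had a higher value with an interval that included 1, Zscan26 was near 1, and Zkscan1, Zkscan3, Zkscan8 and Zkscan17 were all lower in germ cells. A ratio of germ over somatic CPM of at least 2 was reached by 0 of the 8 genes, where 25.3% of the 12989 genes with at least 20 UMIs reached it. A ratio at or below 0.5 was found for Zkscan1, Zkscan3 and Zkscan17, that is 3 of 8 or 37.5%, where 28.7% of all genes had one. These shares lie near or under the background and say nothing particular about the genes as a set. The median log2 ratio was -0.44 over the 8 genes and 0.04 over all genes compared. Measured by the whole list of genes, Zkscan3 had a ratio above those of 15.8% of genes, Zkscan17 above 22.7%, Zkscan1 above 25.1% and Zkscan8 above 32.1%, while Zscan26, Zscan2, Zscan21 and Zscan12 lay above 46.3%, 64.6%, 67.9% and 71.9%.

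**Figure D1:**
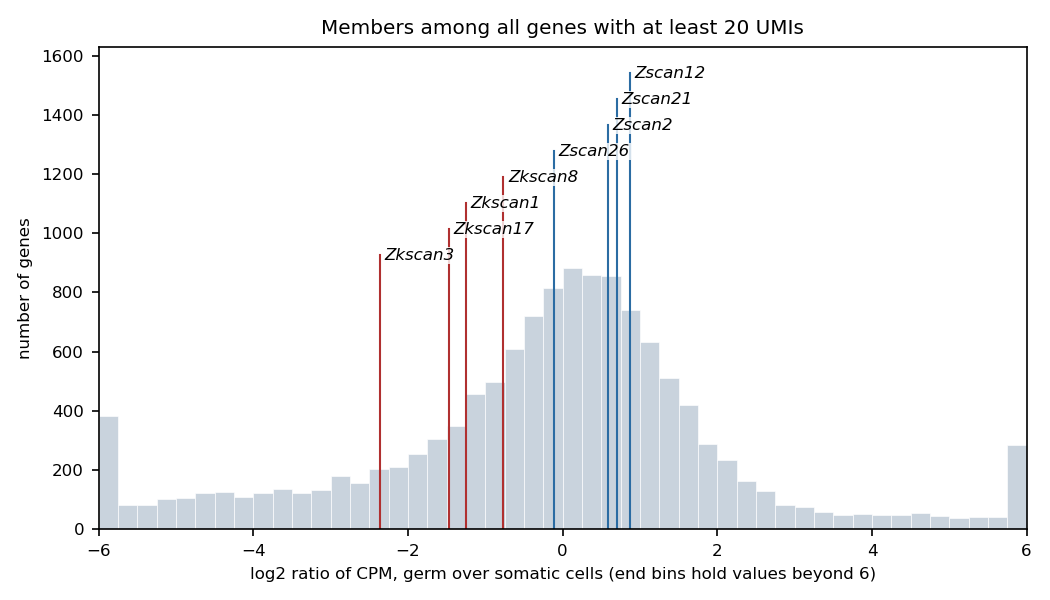
Histogram of the log2 ratio of germ over somatic CPM for the 12989 genes with at least 20 UMIs (bars, number of genes per bin, with ratios beyond the axis placed in the end bins), with a line for each of the 8 genes (red Zkscan, blue Zscan). The line of Zkscan3 stands at -2.36 and that of Zscan12 at 0.87, and none lies in the outer tails.

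Zscan2 had few UMIs in every class, 31 in germ cells and 20 in somatic cells in all. Its level was 5.58 CPM in germ cells (interval 3.79 to 7.92) and 3.73 CPM in somatic cells (2.28 to 5.76), a ratio of 1.50 (0.826 to 2.77). By class, differentiating-like cells held 12 of its UMIs, progenitor-like cells 10, SSC-like cells 9, stromal-like cells 7, peritubular myoid-like cells 6, Sertoli-like cells 5, and macrophage-like and T cell-like cells 1 each. Of the germ cell classes, SSC-like cells had the lowest value, 3.68 CPM (1.68 to 6.99), beside 6.91 CPM (3.32 to 12.7) in progenitor-like and 7.21 CPM (3.73 to 12.6) in differentiating-like cells. The classes overlapped in their intervals, and peritubular myoid-like cells, at 8.10 CPM (2.97 to 17.6), had the highest value. The difference between germ and somatic cells was not detectable at this depth.

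Zscan21 had 200 UMIs in germ cells and 119 in somatic cells. Differentiating-like cells had it at 40.3 CPM, progenitor-like cells at 35.3 CPM and SSC-like cells at 33.5 CPM. Among somatic classes, peritubular myoid-like cells had it at 31.1 CPM, stromal-like cells at 24.4 CPM, Sertoli-like cells at 20.9 CPM, T cell-like cells at 18.2 CPM and macrophage-like cells at 9.69 CPM. All germ cell classes were thus above all somatic classes in value. The intervals of the peritubular myoid-like (19.7 to 46.6 CPM) and T cell-like (3.75 to 53.1 CPM, from 3 UMIs) values covered the values of all 3 germ cell classes. The ratio of germ over somatic cells was 1.62 (1.29 to 2.05).

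Zscan12 had 72 UMIs in germ cells and 38 in somatic cells, a ratio of 1.83 (1.22 to 2.78). Thinned to 5000 UMIs per cell, its log2 ratio was 0.72 with an interval that included 0 (-0.19 to 1.62), from 21 and 25 UMIs. Differentiating-like cells had it at 16.8 CPM, SSC-like cells at 13.5 CPM and progenitor-like cells at 7.61 CPM, and the somatic classes ranged from 4.79 CPM in Sertoli-like to 10.96 CPM in stromal-like cells. The progenitor-like value therefore lay below the stromal-like one, and Zscan12 did not separate germ from somatic classes throughout. Zscan26 had 49 UMIs in germ cells and 51 in somatic cells, a ratio of 0.927 (0.613 to 1.40). Its highest values were 13.5 CPM in Sertoli-like, 11.6 CPM in macrophage-like and 11.5 CPM in SSC-like cells, and its lowest among classes with a UMI was 5.40 CPM in peritubular myoid-like cells. It had no UMI in T cell-like cells, where 3 counts would be 18.2 CPM, so this 0 sets it apart from no other class.

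Zkscan3, known as a repressor of genes of autophagy and lysosomes, differed most between the sides. It had 45 UMIs in germ cells and 223 in somatic cells, and its CPM was 5.14-fold lower in germ cells (3.72 to 7.24). The Sertoli-like level was 47.9 CPM, the stromal-like 42.6 CPM, the peritubular myoid-like 40.5 CPM, the T cell-like 36.4 CPM and the macrophage-like 13.6 CPM. The differentiating-like level was 10.8 CPM, the progenitor-like 9.68 CPM and the SSC-like 5.32 CPM. All somatic values exceeded all germ cell values, and the intervals of the Sertoli-like (39.4 to 57.8 CPM), stromal-like (33.2 to 53.9 CPM) and peritubular myoid-like (27.3 to 57.8 CPM) levels lay wholly above those of the germ cell classes, of which the highest bound was 17.1 CPM. The macrophage-like interval, 5.45 to 27.9 CPM, overlapped them. The T cell-like interval, 13.3 to 79.1 CPM from 6 UMIs, overlapped those of the progenitor-like and differentiating-like classes. With germ cells chosen by a UMI of Ddx4 or Dazl in place of clusters, the log2 ratio of germ over somatic cells was -1.75 (-2.14 to -1.36), against -2.36.

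Zkscan1 had 83 UMIs in germ cells and 191 in somatic cells, and its CPM was 2.39-fold lower in germ cells (1.83 to 3.13). With a mitochondrial limit of 5%, which left 8 and 65 UMIs, the log2 ratio was -0.78 with an interval that included 0 (-2.05 to 0.29), against -1.25. The Sertoli-like level was 47.5 CPM, the peritubular myoid-like 39.2 CPM, the stromal-like 26.2 CPM, the T cell-like 24.2 CPM and the macrophage-like 11.6 CPM. The differentiating-like level was 20.4 CPM, the progenitor-like 15.2 CPM and the SSC-like 11.04 CPM. Macrophage-like cells, with 6 UMIs, fell among the germ cell classes, and the other somatic classes lay above them. Within the differentiating-like class the cluster of 32 cells had 34.5 CPM (18.8 to 57.8) and the cluster of 101 cells 15.9 CPM (9.72 to 24.6).

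Zkscan17 encodes the protein also known as NIZP1, a partner of the histone methyltransferase NSD1. It had 25 UMIs in germ cells and 67 in somatic cells, and its CPM was 2.78-fold lower in germ cells (1.73 to 4.59). With germ cells chosen by a UMI of Ddx4 or Dazl, the log2 ratio was -0.67 (-1.29 to -0.04) in place of -1.47, from 44 and 48 UMIs, and so no longer at or below a ratio of 0.5. Its germ cell classes measured between 3.68 and 5.53 CPM, and among somatic classes the macrophage-like level was 19.4 CPM, the Sertoli-like 15.2 CPM, the peritubular myoid-like 10.8 CPM, the stromal-like 7.92 CPM and the T cell-like 6.06 CPM. The macrophage-like value rested on 10 UMIs and had an interval of 9.29 to 35.6 CPM. Zkscan8 had 42 UMIs in germ cells and 69 in somatic cells, 1.70-fold lower CPM in germ cells (1.14 to 2.56). The log2 interval of this ratio included 0 when cells were thinned to 5000 UMIs (-2.40 to 0.07, from 8 and 33 UMIs). It also included 0 at a resolution of 1.2 (-1.22 to 0.03) and at a mitochondrial limit of 5% (-4.08 to 1.14). At that resolution a cluster of 84 cells, with Neurog3 among its leading genes, took no name and was left out. At the 5% limit a cluster of 118 cells took no name. Zkscan8 measured 20.04 CPM in Sertoli-like cells and between 5.40 and 9.75 CPM in all other classes with a UMI, germ cells included. It had no UMI in T cell-like cells, with the same limit as for Zscan26. Outside Sertoli-like cells the somatic level of Zkscan8 was 7.51 CPM, beside 7.56 CPM in germ cells.

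**Figure D2:**
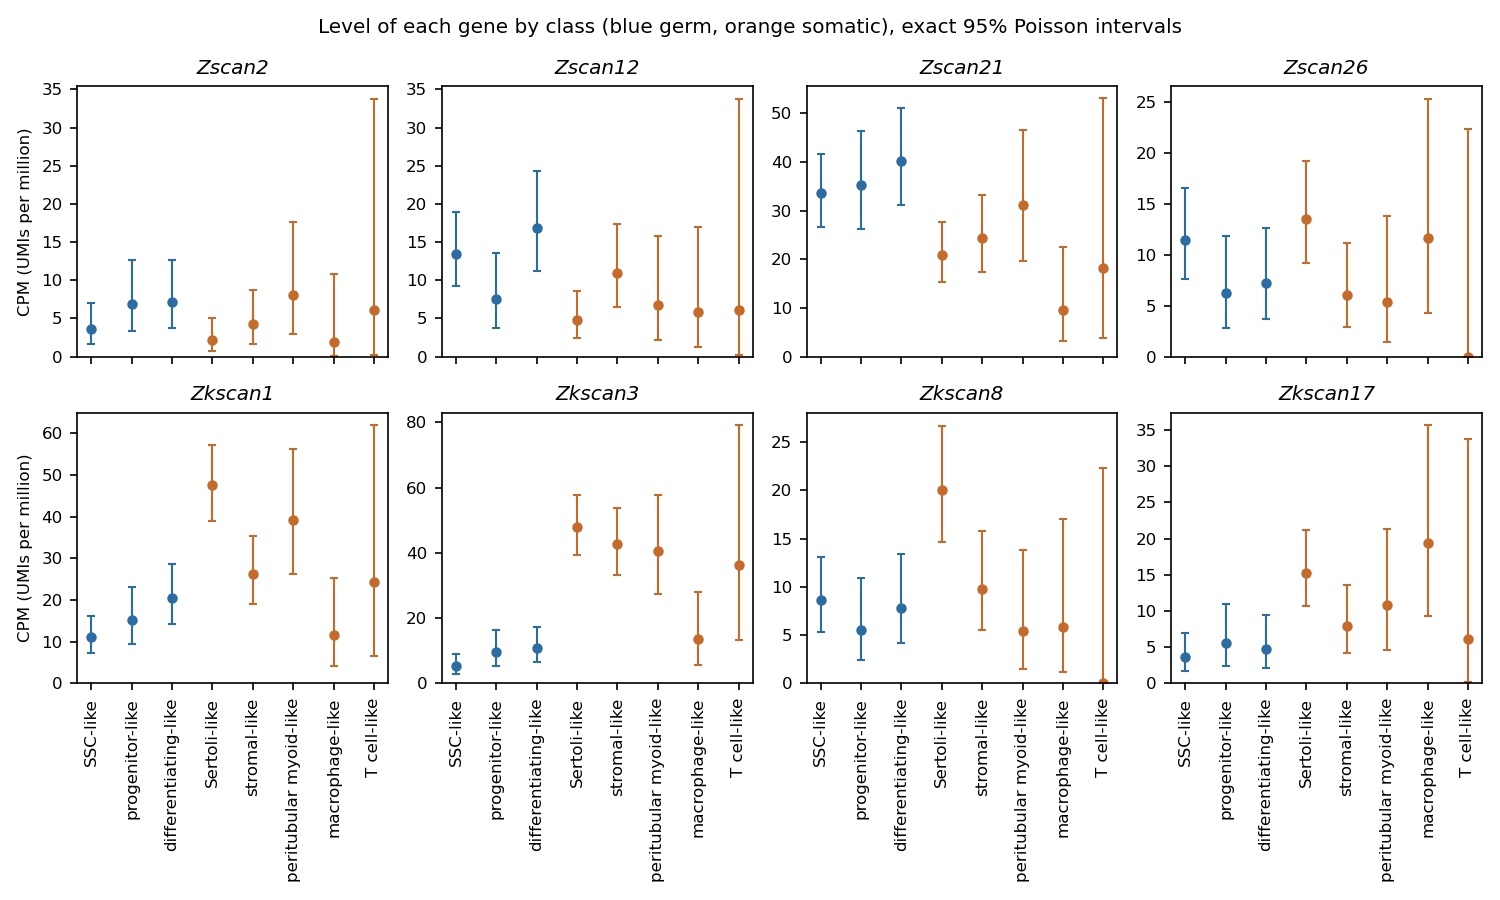
Level of each of the 8 genes in CPM (vertical axis, a separate scale for each gene) in the 3 germ cell classes (blue) and 5 somatic classes (orange), with exact 95% Poisson intervals. Zkscan3 separates the blue from most orange points, from 10.8 CPM at most to between 40.5 and 47.9 CPM in the 3 largest somatic classes, whereas the points of Zscan2 overlap throughout.

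Summed, the 8 genes had 547 UMIs in germ cells and 778 in somatic cells, or 98.5 CPM (90.4 to 107) and 145 CPM (135 to 156). The ratio was 0.678 (0.607 to 0.758). By class the sum was highest in Sertoli-like cells, at 172 CPM, followed by peritubular myoid-like cells at 147 CPM, stromal-like cells at 132 CPM and differentiating-like cells at 115 CPM. It was 96.9 CPM in T cell-like cells, 92.0 CPM in progenitor-like cells, 90.8 CPM in SSC-like cells and 79.4 CPM in macrophage-like cells. The sum is not one pattern shared by its parts. Without Zkscan3 the ratio was 0.873 (0.772 to 0.986), and without Zscan21 it was 0.508 (0.445 to 0.579). Zscan21 alone gave 36.6% of the UMIs of the 8 genes in germ cells and 15.3% in somatic cells, while Zkscan3 gave 8.23% and 28.7%, and Zscan2 5.67% and 2.57%.

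Split by symbol, a split made after the values had been seen, the 4 Zscan genes had 352 UMIs in germ cells and 228 in somatic cells, a ratio of 1.49 (1.26 to 1.77). The 4 Zkscan genes had 195 and 550, and their CPM was 2.92-fold lower in germ cells (2.48 to 3.46). Without Zkscan3 the remaining Zkscan genes had a ratio of 0.443 (0.362 to 0.538), and without Zscan21 the remaining Zscan genes had one of 1.35 (1.04 to 1.74). Neither direction thus rested on the left-out gene alone. Of the UMIs of the 8 genes, Zkscan genes gave 39.1% in the progenitor-like class, 38.0% in the differentiating-like class and 31.5% in the SSC-like class. Their share was 75.9% in the Sertoli-like class, 68.8% in the T cell-like class, 65.4% in the stromal-like class, 65.1% in the peritubular myoid-like class and 63.4% in the macrophage-like class. The highest bound among the germ cell classes was 47.9%, and of the somatic classes the macrophage-like (46.9%) and T cell-like (41.3%) classes had a lower bound under it.

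**Figure D3:**
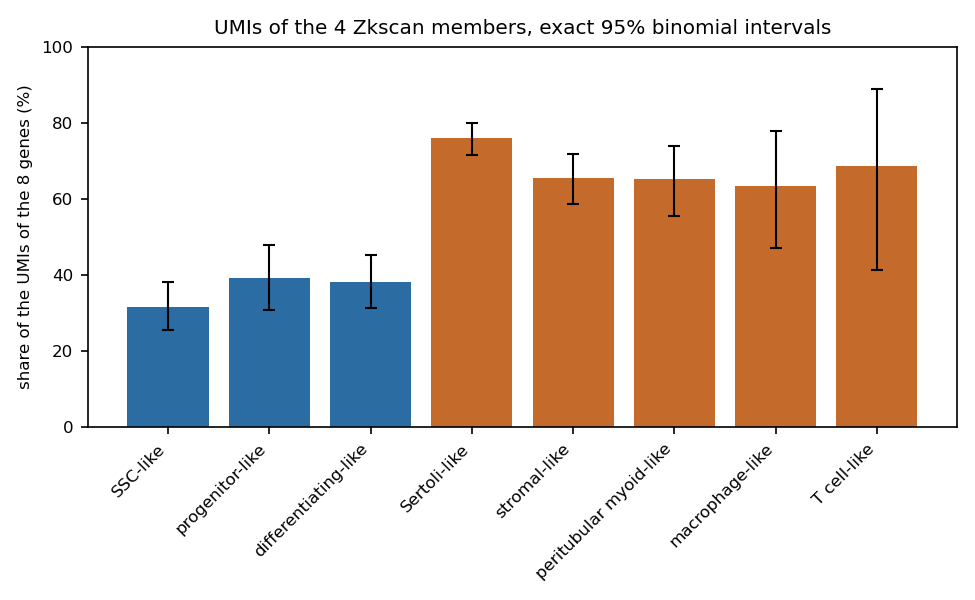
Share of the UMIs of the 8 genes that came from the 4 Zkscan genes (vertical axis, percent) in each germ cell class (blue) and somatic class (orange), with exact 95% binomial intervals. The germ cell classes stand between 31.5% and 39.1% and the somatic classes between 63.4% and 75.9%.

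Set pairwise, the same values differed between some neighbouring genes. The germ over somatic ratio of Zscan21 was 3.87 times that of Zkscan1 (2.70 to 5.54), the gene 9.1 kb upstream of it on the same strand. On chromosome 13 the ratio of Zscan12 was 9.39 times that of Zkscan3 (5.49 to 16.1), which lies 14.7 kb away, and that of Zscan26 was 4.76 times that of Zkscan3 (2.78 to 8.14). Zscan26 and Zkscan8 differed less, with a ratio of ratios of 1.58 (0.879 to 2.83). The CCTAGAG element shown above occurs in genes of both directions, in Zscan12 and Zscan21 as in Zkscan1 and Zkscan8. Zkscan3 had no promoter window, and a link between the element and the levels was not tested.

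Set beside each relative among the 8 genes, Zscan2 could be told from the Zkscan genes of this set and not from its other Zscan genes. Zkscan genes of the wider family were not set beside it, and no share over all genes is given for such pairs. Its germ over somatic ratio was 7.68 times that of Zkscan3 (3.83 to 15.5), 4.15 times that of Zkscan17 (1.89 to 9.16), 3.57 times that of Zkscan1 (1.84 to 6.99) and 2.55 times that of Zkscan8 (1.22 to 5.34). Against Zscan12 it was 0.818 times (0.391 to 1.73), against Zscan21 0.922 times (0.484 to 1.79) and against Zscan26 1.61 times (0.771 to 3.41). The intervals of the last 3 pairs are wide and do not show that the genes are alike.

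Between SSC-like and differentiating-like cells, Zkscan1 was the 1 gene of the 8 whose ratio had an interval that excluded 1. The share of all genes with such an interval is not given here, so this count has no background. Of SSC-like over differentiating-like cells, 0 of the 8 genes had a ratio of at least 2, against 13.9% of all genes, and 1 gene, Zkscan3, had a ratio at or below 0.5, against 12.0% of all genes. The ratio of Zkscan3 was 0.491 (0.221 to 1.06), from 13 and 18 UMIs. Zkscan1, with 27 and 34 UMIs, had a ratio of 0.540 (0.314 to 0.923). Of the 34 UMIs, 14 lay in the differentiating-like cluster of 32 cells. The cluster of 101 cells, at 15.9 CPM (9.72 to 24.6), overlapped SSC-like cells, at 11.04 CPM (7.28 to 16.1). Zscan2 had a ratio of 0.510 with a wide interval (0.190 to 1.32), Zscan12 had 0.802, Zscan21 0.833 and Zkscan17 0.765. Zscan26, at 1.59 (0.782 to 3.43), and Zkscan8, at 1.10 (0.525 to 2.39), had values above 1. The sum had a ratio of 0.787 (0.646 to 0.959), a log2 ratio of -0.35, and its log2 interval included 0 without Zkscan1 (-0.56 to 0.06) and without Zkscan3 (-0.59 to 0.0074). The 8 genes had a median log2 ratio of -0.35, against -0.08 over all genes. Median depth moved with the stages, from 10878 UMIs per cell in the differentiating-like class to 19446 in the progenitor-like and 22293 in the SSC-like class. Thinned to 5000 UMIs per cell, the log2 ratio of the sum was -0.56 (-1.12 to -0.0058), from 50 and 65 UMIs. Thinning left out the cells of lower depth, 36 of 133 in the differentiating-like class and 2 of 112 in the SSC-like class. It therefore did not compare the same cells. The ratios of single genes between stages were not recomputed at equal depth.

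Between progenitor-like and differentiating-like cells Zscan12 was 2.21-fold lower in progenitor-like cells (1.07 to 4.93), from 11 and 28 UMIs. The other 7 genes had ratios between 0.708 for Zkscan8 and 1.15 for Zkscan17, each with an interval that included 1. No share over all genes is given for these 2 classes, so Zscan12 standing apart here has no background. For the 8 genes summed, from 133 and 192 UMIs, progenitor-like CPM was 0.797 of the differentiating-like CPM (0.634 to 0.999). That interval ended just under 1, and this sum was not recomputed under other settings. Between SSC-like and progenitor-like cells the sums differed by less than counting error, with a ratio of 0.987 (0.793 to 1.23).

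Among somatic cells the Sertoli-like class, whose cells enclose and nourish the germ cells, differed from the rest in some of the 8 genes. Zkscan8, at 2.67 (1.58 to 4.61), and Zscan26, at 2.07 (1.14 to 3.83), had a ratio of Sertoli-like over other somatic CPM of at least 2. That is 2 of 8, or 25%, where 22.9% of all genes had one. Zscan2, at 0.445 (0.126 to 1.29) from 5 and 15 UMIs, was the 1 gene at or below 0.5, where 19.6% of all genes were. Zkscan1 had a ratio of 1.77 (1.32 to 2.39), Zkscan17 one of 1.46 (0.878 to 2.43) and Zkscan3 one of 1.30 (0.990 to 1.70). Zscan21, at 0.902 (0.612 to 1.32), and Zscan12, at 0.544 (0.243 to 1.13), had values below 1. The median log2 ratio was 0.46 over the 8 genes and 0.26 over all genes. Within the 3 Sertoli-like clusters Zkscan8 measured 27.3 CPM (18.5 to 38.7) in the cluster of 132 cells. It measured 10.1 CPM (4.08 to 20.9) in that of 78 cells and 17.1 CPM (7.36 to 33.6) in that of 45 cells.

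When the 8 classes were ordered by CPM for each gene, few neighbours in the order could be told apart. Neighbours in such an order have the closest values by construction. The counts that follow therefore do not mean that classes further apart are alike, and no share over all genes stands beside them. Of 56 neighbouring pairs over the 8 genes, 1 had a ratio whose interval excluded 1, Zkscan8 in Sertoli-like over stromal-like cells (2.06, 1.14 to 3.89). Of 21 pairs in the 3 sums, 1 did, the Zkscan sum in Sertoli-like over peritubular myoid-like cells (1.36, 1.05 to 1.79). Sertoli-like cells came first for Zscan26, Zkscan1, Zkscan3 and Zkscan8, and last for Zscan12, while SSC-like cells came last for Zkscan1, Zkscan3 and Zkscan17.

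A UMI of any of the 8 genes was found in 76.9% of germ cells (71.9 to 81.3%) and 69.5% of somatic cells (65.6 to 73.1%). This order is opposite to that of the summed CPM. Germ cells were deeper, with a median of 18216 UMIs against 8194. Thinned to 5000 UMIs per cell, the expected shares were 40.5% of germ and 51.5% of somatic cells, which left out 45 germ and 48 somatic cells of lower depth. Thinning turned the order for Zkscan8 as well, from 12.3% of germ and 11.2% of somatic cells to 3.61% and 6.27%, and for Zscan26, from 12.7% and 8.22% to 4.42% and 5.03%. For Zscan2 the shares of 9.26% and 3.36% became 2.52% and 2.18%, and for Zscan21 44.8% and 18.8% became 17.2% and 11.3%. Zkscan3 was found in 12.96% of germ and 30.03% of somatic cells, and in 4.61% and 18.95% after thinning. As a rough guide to free RNA in the droplets, 6 germ cell markers were read in somatic cells. They stood there at a median of 0.0241 of their germ cell CPM (lowest marker 0.0186, highest 0.0978). In germ cells, 6 stromal markers stood at a median of 0.00440 of their stromal-like CPM. The 7 Sertoli markers stood in germ cells at a median of 0.0118 (lowest marker 0.00670, highest 0.785) of their Sertoli-like CPM. The lowest ratio of the 8 genes between the sides was 0.195, for Zkscan3, taken over all somatic cells and not over a single class. The highest of the Sertoli markers, at 0.785, stood above it. The markers do not separate free RNA from other sources, and its part in the counts was not tested.

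**Figure D4:**
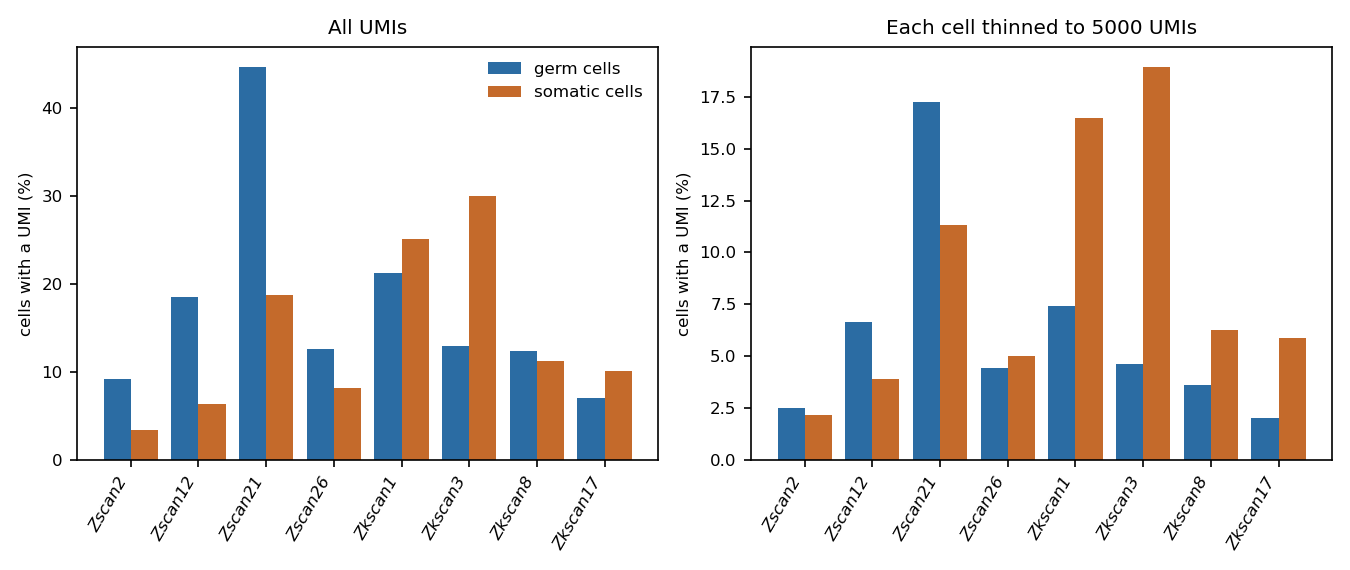
Percent of germ cells (blue) and somatic cells (orange) with at least 1 UMI of each gene, with all UMIs (left) and as the expected share after thinning each cell to 5000 UMIs (right). For Zkscan8 and Zscan26 the germ cell bar is the higher one on the left and the lower one on the right.

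Few cells held transcripts of more than 3 of the genes. In germ cells 75 cells had none of the 8 genes, 118 had 1, 77 had 2, 40 had 3, 12 had 4 and 2 had 5, and median depth ran from 6113 UMIs in cells with none to 24374 UMIs in cells with 4. Among the 30 germ cells with a Zscan2 UMI, 73.3% also had a UMI of a relative, against 74.5% of the other 294, whose median depth was 17960 UMIs against 22246. No cell had more than 2 Zscan2 UMIs.

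The wider SCAN family was read from a list of 40 further genes, of which 35 were in the gene file, 29 had a UMI and 23 had at least 20. Of these 23, 5 (21.7%) had a germ over somatic ratio of at least 2, where 25.3% of all genes did, and 1 (4.35%) had one at or below 0.5, where 28.7% did. The median log2 ratio was 0.21, against 0.04 over all genes. The largest ratios were 3.86 for Zkscan2 (32 and 8 UMIs), 3.67 for Zfp287 (57 and 15 UMIs) and 2.86 for Zscan18 (77 and 26 UMIs). The smallest were 0.0800 for the imprinted gene Peg3 (78 and 941 UMIs), 0.501 for Scand1, which encodes a SCAN domain without zinc fingers (469 and 903 UMIs), and 0.626 for Zscan22. The Zkscan genes of this list went both ways. All 4 of them with at least 20 UMIs had a ratio above 1, and 3 were at or above 2, namely Zkscan2, Zkscan14 (2.67) and Zkscan6 (2.34), the last pair named after their values were seen. Below 20 UMIs, and also named after their values were seen, Zkscan4, which lies among the chromosome 13 genes, had 2 UMIs in germ cells and 16 in somatic cells, a ratio of 0.121 (0.0135 to 0.513). Zkscan7 had 3 and 7 UMIs, a ratio of 0.413 (0.0690 to 1.81), and Zkscan16 had 3 and 0.

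**Figure D5:**
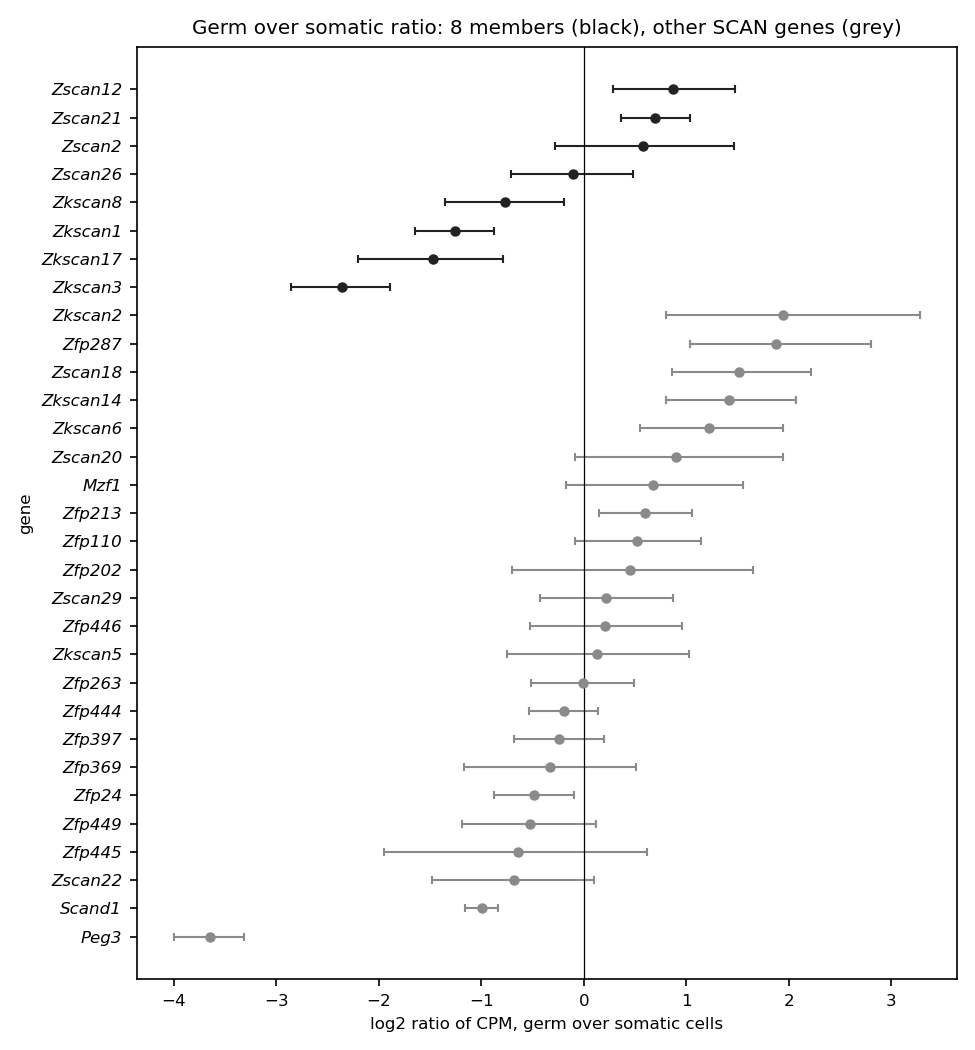
Log2 ratio of germ over somatic CPM (horizontal axis) with exact 95% intervals for the 8 genes (black) and the 23 other SCAN family genes with at least 20 UMIs (grey). The black Zkscan genes lie between -2.36 and -0.77, whereas the grey Zkscan2 lies at 1.95.

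The listed cofactors through which KRAB domains act had 330 or more UMIs each in germ cells and 114 or more in somatic cells. Of 5 listed, 2 (40%) had a germ over somatic ratio of at least 2, which 25.3% of all genes had, namely Setdb1 at 2.79 (59.4 and 21.3 CPM) and Cbx3, which encodes HP1 gamma, at 2.01 (197 and 98.2 CPM). Trim28 had a ratio of 1.83 (1.62 to 2.07), while Cbx1, at 0.845 (0.770 to 0.928), and Cbx5, at 0.754 (0.657 to 0.864), were lower in germ cells. Of the genes that the study links to ZSCAN2, Crebbp had a ratio of 1.70, Srcap one of 1.47 and Ep300 one of 0.830, beside 1.50 for Zscan2.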

How the data were processed

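The authors aligned the reads of 1 Chromium v2 library to mouse mm10 (GRCm38) with Cell Ranger (2.1.0 in the submitters' processing notes) and deposited UMI counts per gene and barcode, without normalization. Barcodes had between 2655 and 44915 UMIs (median 9115). Here a barcode was kept if it had 500 or more genes and less than 10% mitochondrial UMIs and was not among the 4 doublets scrublet found (scanpy 1.11.5). Kept cells were clustered with Seurat 5.3.0 (R 4.3.3, 14 principal components, resolution 0.5) and named from at least 3 detected markers. Germ cells were clustered again. UMIs were summed per class and given as CPM, which are 3′ counts not divided by transcript length, so levels were compared between classes, and UMIs of different genes were set together only as sums and shares. Levels have exact Poisson, shares exact binomial and ratios exact conditional binomial intervals, and ratios of ratios exact conditional odds ratio intervals, as checked on simulated data. Calls are 2-fold ratios among genes with at least 20 UMIs. All 8 genes are named, and of the wider family the 3 largest and 3 smallest ratios. The genes, lists and markers were chosen with earlier results of these data known. 1 listed gene is not reported here.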

Additional observations from a re-analysis of the deposited data

How the results depend on the processing

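No paired analysis was possible because the data are 1 library of pooled mice. Over 16 other settings (filters, variable genes, principal components, resolution, selection of germ cells, denominator, averaging and thinning) and 10 settings chosen after seeing the data (sums without 1 gene, and cells without the T cell-like or progenitor-like class), 179 of 191 values stayed within the interval of the reported value, 12 left it and 0 changed the direction of a ratio whose interval excluded 1. The summed log2 ratio of germ over somatic cells, -0.56, was -0.13 with a mitochondrial limit of 5%, with an interval that included 0 (-0.58 to 0.29). It was -0.98 without Zscan21, -0.39 without Zkscan1 and -0.20 without Zkscan3. The mitochondrial limit of 5% left 55 UMIs of the 8 genes in germ cells and a cluster of 118 cells without a name. It moved the log2 ratios of Zscan26 from -0.11 to 0.76 and Zscan12 from 0.87 to 1.61. Zkscan1 moved from -1.25 to -0.78 with an interval including 0, and Zkscan3 from -2.36 to -3.06 (2 UMIs in germ cells). Zkscan17 moved from -1.47 to -2.34 (1 UMI in germ cells), also with an interval including 0 (-7.70 to 0.28). Selecting germ cells by a UMI of Ddx4 or Dazl gave -0.67 for Zkscan17 and -1.75 for Zkscan3, and thinning gave -1.67 for Zkscan1. Thinning left the values of Zscan12 and Zkscan8 within their reported intervals, but with intervals of their own that included 0. The cause was not tested. The Zscan2 log2 ratio of germ over somatic cells lay between 0.33 and 0.98 under its 18 settings. The summed log2 ratio of SSC-like over differentiating-like cells lay between -0.56 and -0.25 in 21 settings. Its interval included 0 without Zkscan1 or Zkscan3. Selecting by a UMI of Ddx4 or Dazl, a 5% mitochondrial limit and a resolution of 0.3 gave no such value. Depth limits the rare genes most: Zscan2 rests on 51 UMIs.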

Other observations

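Over the 8 classes, the genes whose log2(CPM + 1) followed that of the 8 genes summed most closely, among 6530 genes with at least 200 UMIs, were Twsg1 (Pearson r of 0.977), Tbl1x (0.960), Arxes2 (0.958), Atf7 (0.954) and Cpe (0.954). The points share 1 library and rest on class sums of unequal depth, so this is a description of 8 values per gene. Of the wider family, Zscan5b had 12 UMIs in germ cells and 0 in somatic cells, which gave 2.16 CPM in germ cells, and the exact interval of the ratio had a lower bound of 2.68. It was named after its values were seen.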
